A study of Mus musculus with 10 samples.

Results

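Endothelial cells hold to each other through adherens junctions, tight junctions and related immunoglobulin-family adhesion proteins, and 9 genes for such proteins are described here across naive and stressed mice: Cdh5, Cldn5, Ocln, Tjp1, F11r, Jam2, Jam3, Esam and Pecam1. They were chosen by symbol from a table of 55401 genes, and all 9 passed the filter on low counts that left 14815 genes. In lymphatic capillaries the junctions are discontinuous and button-like, which lets fluid and cells enter. Collecting lymphatics and most blood vessels have continuous, zipper-like junctions. Cldn5 is best known as the main claudin of the blood-brain barrier, and Cdh5 is present in both vessel types.

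RNA came from cells of the dura mater of female mice, 3 months old, labelled C57BL/6 and named C57BL/6J in the methods of the study. The cells were sorted as viable CD45-negative, CD31-positive and podoplanin-positive cells, the gate for meningeal lymphatic endothelial cells (LECs). There were 5 replicates from naive mice, which were left unstressed, and 5 from mice given 6 days of sub-chronic variable stress (SCVS), in which foot shock, tail suspension and restraint alternate. Each replicate pooled the cells of 3 to 4 animals, tissue of both groups was digested with collagenase in the presence of the transcription inhibitor actinomycin D, and RNA was amplified before sequencing. The question was whether stress alters the transcripts of these cells. Pecam1 encodes CD31, an antigen of the gate, so its presence is no finding. Replicates are separate pools, but the sources do not say which cohort each came from, so p-values measure the spread between these pools.

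Total counts per replicate ranged from 9984743 to 14094155. A level is given in CPM, a gene's count scaled to a column total of 1000000, and 3 counts, taken as the limit of detection, equal 0.213 to 0.300 CPM. The limit covers counting error only, since amplified reads are not independent molecules. The 9 genes together took 4232, 4191, 5615, 4291 and 559 CPM in naive replicates 1 to 5 and 3688, 4706, 2036, 3566 and 2917 CPM in SCVS replicates 1 to 5. Naive replicate 5 was the lowest of the 10, at 12.2% of the mean of the other naive replicates.

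Naive replicate 5 stood apart from the other libraries. Its correlation of log2(CPM + 1) with the others, across the tested genes, had a median of 0.52, against medians of 0.63 to 0.67 for the remaining 9 libraries, and genes are not independent replicates. Of the blood endothelial (BEC) markers, 5 of 9 were above 3 counts there, with Sox17, Vwf and Aplnr at 0. The 9 BEC markers, of which Plvap was the most abundant, summed to 10527, 8909.8, 13264, 9502 and 685 CPM in naive replicates 1 to 5 and 10052, 12331, 7591, 6816 and 6935 CPM in SCVS replicates 1 to 5. All 8 pan-endothelial markers, led by Emcn, were above 3 counts in every replicate, and they summed to 710.3 CPM in naive replicate 5 and to between 3906 and 7756 CPM in the others. Emcn is on both lists, and Kdr and Plvap are also among the junction partners described with the genes they act beside.

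A list of 11 genes of the olfactory epithelium, chosen after the counts had been seen and led by S100a5, summed to 4294, 402, 2262, 8076 and 13545 CPM in naive replicates 1 to 5 and 4606, 836, 6263, 2105 and 4626 CPM in SCVS replicates 1 to 5. Naive replicate 5 had the highest sum, and all 11 genes were above 3 counts in it, in naive replicate 1 and in SCVS replicate 5. Every library held some of them, and Gnal and Adcy3 of the list are expressed in other tissues too. Glial and neuronal markers, 6 of 7 above 3 counts in naive replicate 5 and led by Mbp over all libraries, summed to 3277 CPM there and to 86.6 to 1835 CPM elsewhere. The part of these transcripts in the junction gene levels was not tested, and the difference of each junction gene is given with and without naive replicate 5.

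The lymphatic label was checked against its markers. The 9 LEC markers, led by Mmrn1, summed to 70.9, 2821, 1165, 1239 and 185 CPM in naive replicates 1 to 5 and 1378, 1142, 3136, 3126 and 459.8 CPM in SCVS replicates 1 to 5. Prox1, the transcription factor that defines lymphatic identity, measured 0, 69.4, 52.0, 4.13 and 63.2 CPM in naive replicates 1 to 5 and 1.06, 23.4, 223, 123 and 0.200 CPM in SCVS replicates 1 to 5. It was at 0 in naive replicate 1 and within the limit of detection in SCVS replicate 5, which had 2 counts. Podoplanin (Pdpn), the other antigen of the gate, was also at 0 in naive replicate 1, as was Tbx1, which was at 0 in naive replicate 5 too and had 1 count in SCVS replicate 1. Lyve1, a lymphatic marker, had 2 counts in naive replicate 1, 1 in naive replicate 5 and 946 to 10709 in the others. Flt4, Mmrn1, Ccl21a and Reln of the list were above 3 counts in all 10 replicates. Of the 9 LEC markers, 5 were above 3 counts in naive replicate 1, 6 in naive replicate 5 and 7 to 9 in the others. In all 10 replicates the BEC list summed higher than the LEC list, although the lists hold different genes of different lengths. The libraries are therefore named here by their gate, CD45-negative, CD31-positive and podoplanin-positive, and not by their content. In naive replicate 5 Pecam1, the gene of CD31, was at 2.17% and the pan-endothelial sum at 11.3% of the mean of the other naive replicates. Their junction transcripts cannot be assigned to lymphatic or blood endothelium.

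Other cell types were read from lists fixed with the design. Fibroblast and mural markers, led by the pericyte gene Rgs5, summed to 8339.6, 2157, 1376, 3991 and 5114 CPM in naive replicates 1 to 5 and 1146, 5962, 3421, 3186 and 1875 CPM in SCVS replicates 1 to 5, with 9 of 10 genes above 3 counts in naive replicate 1 and 3 of 10 in naive replicate 5. Rgs5 alone measured 5664, 427, 673, 3589 and 5057 CPM in naive replicates 1 to 5. In SCVS replicates 1 to 5 it measured 1010, 5812, 3210, 2999 and 324 CPM. Leukocyte markers, led by Lyz2, reached 4071 CPM in SCVS replicate 4 and 7.87 to 780.2 CPM in the others. Platelet markers, led by Ppbp, lay between 0.0750 and 565 CPM, and erythroid markers, led by Hba-a1, reached 4915 CPM in SCVS replicate 5 and at most 125 CPM elsewhere. In these bulk libraries fewer cells of a type and less RNA per cell cannot be told apart.

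**Figure D1:**
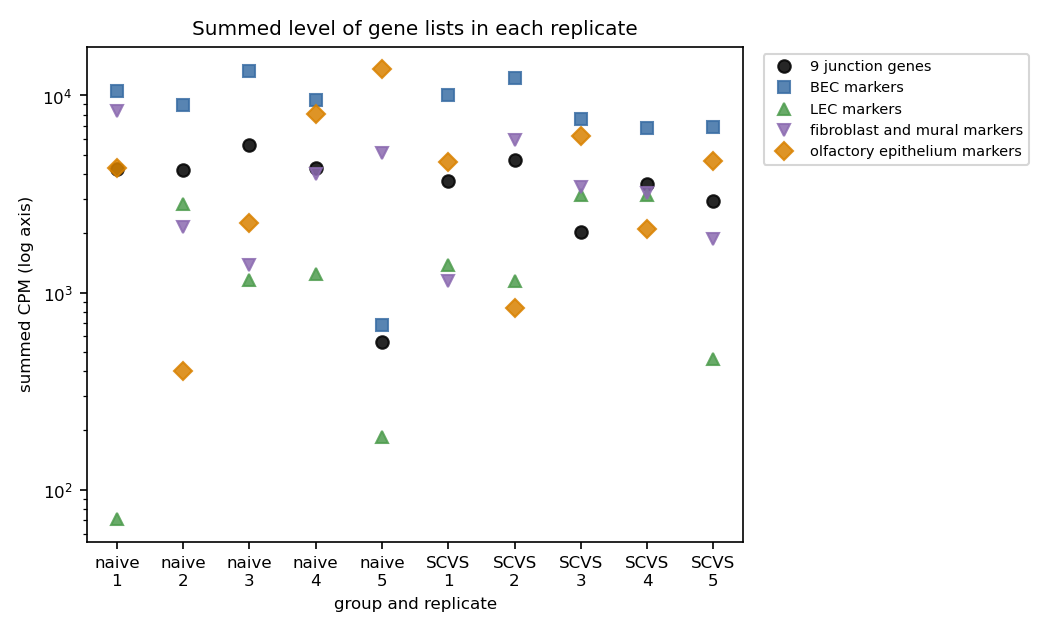
Summed CPM (log axis) of the 9 junction genes and of 4 marker lists in each naive and SCVS replicate. In naive replicate 5 the junction genes (559 CPM) and BEC markers (685 CPM) were at their lowest and the olfactory list (13545 CPM) at its highest.

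Between SCVS and naive mice, 0 of the 9 junction genes passed the quasi-likelihood test of edgeR at an adjusted p (Benjamini-Hochberg, over all tested genes) of 0.1, where 0% of the 14815 tested genes passed. At an unadjusted p under 0.05 the test gave 0 of 9 junction genes and 460 tested genes (3.1%). No junction gene passed in DESeq2, which called 114 tested genes (0.769%), in limma with voom, which called 3 (0.0202%), or in edgeR's likelihood ratio test, which called 38 (0.256%). Of the 9 genes, 6 had a lower and 3 a higher fitted value in SCVS, with a median log2 fold change of −0.20, beside −0.030 over all tested genes. Without naive replicate 5 the split was 7 lower and 2 higher and the median −0.47, again with 0 genes past the threshold, beside a median of 0.024 over all genes then tested. The medians of marker lists with and without naive replicate 5 were −0.018 and −0.30 for BEC, 0.071 and −0.23 for pan-endothelial, 0.82 and 0.57 for LEC, and −1.81 and −2.12 for fibroblast and mural markers. Over the genes tested in both fits they were 0.98 and 0.66 for 5 platelet, 2.76 and 2.45 for 7 leukocyte and 5.11 and 5.59 for 5 erythroid markers. The sign turned for 5 glial and neuronal markers (−0.24 and 0.76) and for the 11 olfactory genes (−1.08 and 0.53). The part of any of these lists in the junction genes' median was not tested. The junction genes' median was positive in some other settings, among them limma with voom (0.15) and without naive replicate 3 (0.020). Over all settings tried, adjusted p of the 9 genes lay between 0.570 and 1.00, and an adjusted p above the threshold does not show that levels were equal. Groups did not overlap in CPM for 0 of the 9 genes, where this held for 0.628% of the tested genes.

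**Figure D2:**
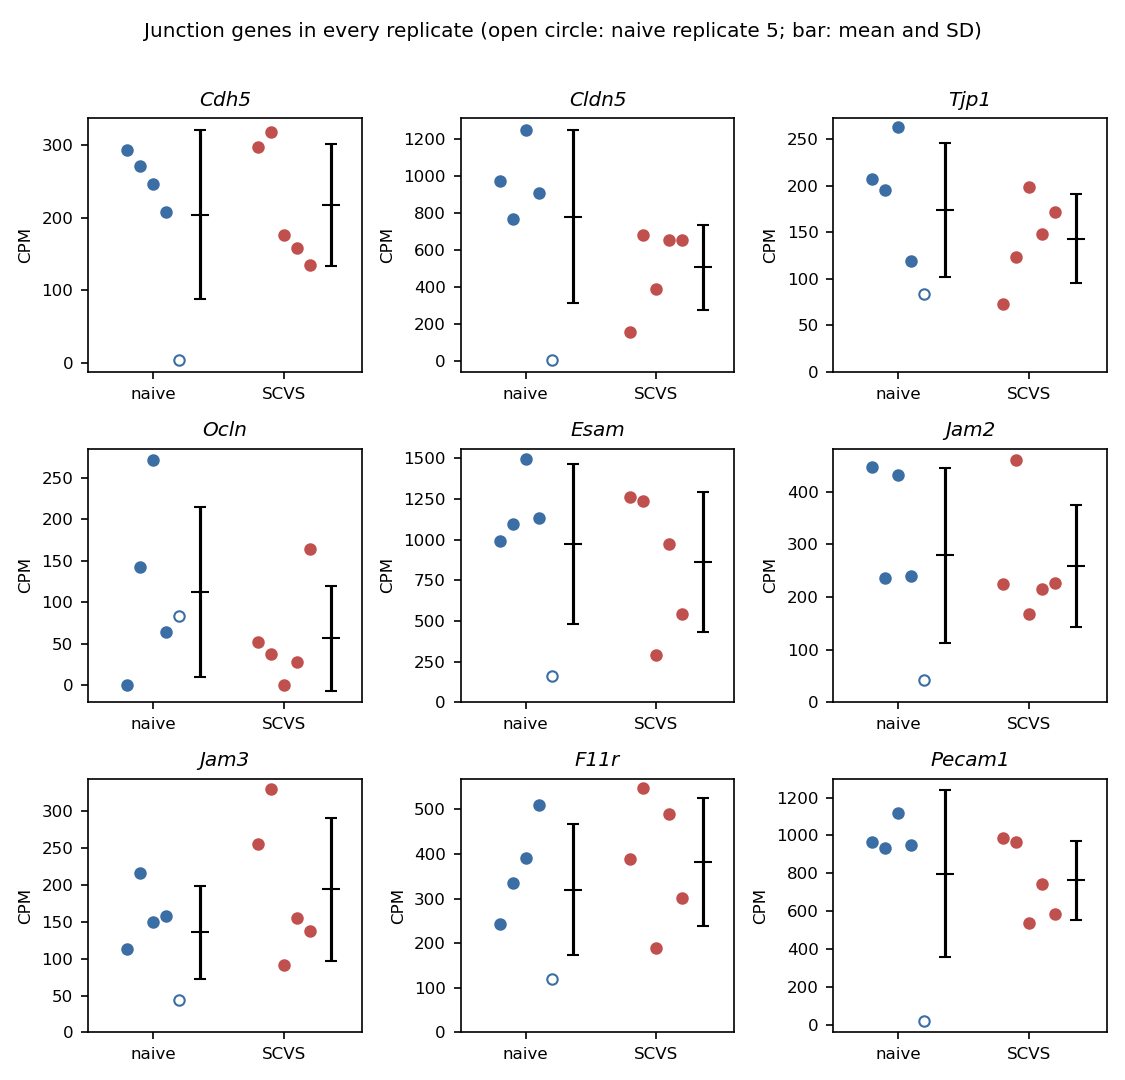
CPM of each junction gene (linear axes) in the 5 naive and 5 SCVS replicates, with the mean and SD of each group as bars and naive replicate 5 as an open circle. Apart from that replicate, naive Cldn5 lay between 768 and 1250.3 CPM, above all 5 SCVS replicates. Of the 14191 genes tested without it, 0.55% had every SCVS replicate lower. Naive replicate 5 was singled out after the counts had been seen, and with it the Cldn5 groups overlapped.

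Cdh5 (ENSMUSG00000031871, chromosome 8, 104101613 to 104144504 in GRCm38.p6) encodes VE-cadherin, the transmembrane protein of endothelial adherens junctions, and a predicted gene, Gm29682, overlaps it. It measured 293, 271, 246, 208 and 3.00 CPM in naive replicates 1 to 5 and 297, 318, 177, 159 and 135 CPM in SCVS replicates 1 to 5. Naive replicate 5, with 40 counts, was far below all others, SCVS replicates 1 and 2 were the highest of all 10, and the groups overlapped. The means were 204 ± 117 CPM in naive and 217 ± 84.2 CPM in the SCVS group (SD, n = 5 per group), and the log2 fold change in that edgeR test, with its standard error (SE) and adjusted p, was 0.020 (SE 0.75, adjusted p = 1.00). Without naive replicate 5 the naive mean was 255 ± 36.4 CPM (SD, n = 4) and the sign of the edgeR estimate turned, to −0.29 (SE 0.31). It was also negative without SCVS replicate 1 (−0.11) or 2 (−0.11), and −0.19 without naive replicates 1 and 5, whereas limma with voom on all replicates gave 0.37.

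Cadherins act with catenins inside the cell, and none of the 16 adherens junction partners passed the threshold in edgeR's test. Of these, 8 were fitted lower and 8 higher in SCVS, with a median log2 fold change of 0.021, or −0.11 without naive replicate 5. Ctnnb1, the beta-catenin that binds the cadherin tail, was even across libraries, at 565, 735, 891, 813 and 826 CPM in naive replicates 1 to 5 and 699, 693, 619.8, 726 and 689 CPM in SCVS replicates 1 to 5. In naive replicate 5 it stood at 110.1% of the mean of the other naive replicates, whereas Cdh5 stood at 1.18%. Ptprb, the phosphatase VE-PTP that acts on VE-cadherin, measured 531, 763, 1169.6, 1093 and 50.3 CPM in naive replicates 1 to 5 and 1144, 843, 731, 651 and 474 CPM in SCVS replicates 1 to 5. Like Cdh5 it was lowest in naive replicate 5, and its log2 fold change was 0.048 (SE 0.59, adjusted p = 1.00) in edgeR's test. Without naive replicate 5 the sign of this Ptprb estimate turned, to −0.25 (SE 0.30). Kdr, the VEGF receptor VEGFR2, had 806 ± 480.3 CPM in naive and 1142 ± 473 CPM in the SCVS group (SD, n = 5 per group), a difference within that spread.

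Cldn5 (ENSMUSG00000041378, chromosome 16, 18776847 to 18778262) encodes claudin-5, which seals the space between neighbouring endothelial cells. It measured 971, 768, 1250.3, 909 and 0.150 CPM in naive replicates 1 to 5 and 153, 683, 386, 651 and 652 CPM in SCVS replicates 1 to 5. Naive replicate 5 held 2 counts, within the limit of detection (exact Poisson 95% interval 0.0182 to 0.542 CPM), while the other naive replicates held 9814 to 17473, and SCVS replicate 1 was the lowest of its group. With all replicates the groups overlapped through naive replicate 5 alone. The means were 779.9 ± 469.8 CPM and 505 ± 231 CPM (SD, n = 5 per group), with an edgeR log2 fold change of −0.68 (SE 1.10, adjusted p = 1.00) and a 95% interval of −3.07 to 1.72.

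Without naive replicate 5, all 5 SCVS replicates lay below the other 4 naive replicates for Cldn5, which averaged 975 ± 202 CPM (SD, n = 4). It was the 1 of 9 junction genes with this pattern, which 0.55% of the 14191 genes then tested also showed, and in 1.37% of them the groups did not overlap when both directions are counted. The edgeR log2 fold change was −0.996 (SE 0.39, adjusted p = 0.943), with a 95% interval of −1.87 to −0.13 and an unadjusted p of 0.0287 in edgeR's fit. Of the 9 genes only Cldn5 had an unadjusted p under 0.05 in that fit, as did 4.24% of all genes, and it did not pass after adjustment. In limma with voom without naive replicate 5, where 5.88% of genes had an unadjusted p under 0.05, Cldn5 had a log2 fold change of −1.02 with an unadjusted p of 0.0139 in limma (adjusted p = 0.782). In the same limma fit Pecam1 had −0.39 with an unadjusted p of 0.0298 (adjusted p = 0.834 in limma). Without naive replicates 1 and 5 the edgeR estimate for Cldn5 was −0.98, and its 95% interval, −1.98 to 0.024, included 0 (unadjusted p = 0.0547 in edgeR). Its groups did not overlap there, as for 1 of 9 junction genes and 3.04% of the genes then tested. Over all alternatives its adjusted p was 0.570 to 1.00, and limma with voom on all 10 replicates gave a log2 fold change of 0.18, of the opposite sign. With detected genes per library as covariate the edgeR estimate over 10 replicates was −1.28. Each replicate was left out in turn, and naive replicate 5, alone or with naive replicate 1, was singled out after the counts had been seen.

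Within a library, the ratio of Cldn5 to Pecam1 counts does not depend on sequencing depth. It was 1.01, 0.824, 1.12, 0.958 and 0.00697 in the naive replicates, in order, and 0.155, 0.707, 0.721, 0.874 and 1.11 in the SCVS replicates. For naive replicate 5 the exact binomial 95% interval of the ratio was 0.000840 to 0.0254. SCVS replicate 1 was also low, while SCVS replicates 4 and 5 lay inside the range of naive replicates 1 to 4, so that on this ratio the groups overlapped also without naive replicate 5.

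Ocln (ENSMUSG00000021638, chromosome 13, 100496504 to 100552718), for occludin, a tight junction protein, is overlapped by the predicted gene LOC115488221. It measured 0, 142, 271, 64.4 and 83.8 CPM in naive replicates 1 to 5 and 52.2, 37.9, 0, 28.3 and 164 CPM in SCVS replicates 1 to 5. No read was counted in naive replicate 1 or SCVS replicate 3, which allows up to 0.288 and 0.243 CPM, and all SCVS values lay within the naive range. Its edgeR log2 fold change of −1.02 (SE 1.51, adjusted p = 1.00) was smaller than its standard error, with a 95% interval of −4.32 to 2.29, and without naive replicate 5 it was −1.11 (SE 1.63). It was −0.37 without naive replicate 3 and −2.01 without SCVS replicate 5. Ocln varied most of the 9 genes, with a coefficient of variation over 10 replicates of 101%.

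Tjp1 (ENSMUSG00000030516, chromosome 7, 65296165 to 65527850) encodes ZO-1, the scaffold that ties claudins and occludin to actin. It measured 207, 196, 263, 119 and 83.8 CPM in naive replicates 1 to 5 and 73.2, 124, 199, 148 and 172 CPM in SCVS replicates 1 to 5. SCVS replicate 1 was the lowest and naive replicate 3 the highest, and the groups overlapped. In naive replicate 5 Tjp1 kept 42.7% of the mean of the other naive replicates. The edgeR log2 fold change was −0.31 (SE 0.41, adjusted p = 1.00) with all replicates and −0.49 (SE 0.38) without naive replicate 5. SCVS and naive means were 143 ± 48.0 and 174 ± 71.9 CPM (SD, n = 5 per group), closer than the spread of either group.

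Of 24 tight junction partners listed, 18 were tested, 0 passed the threshold in edgeR's test, 10 were fitted lower and 8 higher in SCVS, and the median log2 fold change was −0.16, and over the 17 of them also tested without naive replicate 5 it was −0.095 with and 0.33 without that replicate. Cgnl1, the paracingulin that binds junctional scaffolds, was the most abundant, at 100.5, 152, 168, 57.8 and 45.9 CPM in naive replicates 1 to 5 and 116, 165, 93.6, 44.8 and 53.7 CPM in SCVS replicates 1 to 5. Lsr, the angulin of tricellular contacts, measured 98.3, 153, 135, 63.2 and 2.33 CPM in naive replicates 1 to 5 and 77.4, 60.2, 32.3, 67.9 and 96.1 CPM in SCVS replicates 1 to 5. It was lowest in naive replicate 5, as Cldn5 was, and the groups overlapped. Pard6g, a polarity protein, had 36.6 ± 32.3 CPM in naive and 86.2 ± 60.2 CPM in the SCVS group (SD, n = 5 per group), with an edgeR log2 fold change of 1.25 (SE 1.07, adjusted p = 1.00). Cldn2, Cldn14 and Cldn15, named after their values were seen, had no read in any replicate.

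F11r (ENSMUSG00000038235, chromosome 1, 171437561 to 171464593) encodes JAM-A, an adhesion molecule of endothelial and epithelial tight junctions that is also found on leukocytes and platelets. It measured 243, 335, 390.4, 509 and 121 CPM in naive replicates 1 to 5 and 388, 547, 189.8, 489 and 302 CPM in SCVS replicates 1 to 5. Naive replicate 5 was the lowest, SCVS replicate 2 the highest, and the groups overlapped. Means were 319.8 ± 147 CPM in naive and 383 ± 143 CPM in the SCVS group (SD, n = 5 per group), with an edgeR log2 fold change of 0.21 (SE 0.40, adjusted p = 1.00) that became 0.0050 (SE 0.32) without naive replicate 5. It was negative with detected genes per library as covariate (−0.12) and without naive replicates 1 and 5 (−0.13).

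Jam2 (ENSMUSG00000053062, chromosome 16, 84774123 to 84826380), for JAM-B, is an endothelial adhesion molecule that pairs with JAM-C, and the predicted gene Gm46557 overlaps it. It measured 446, 236, 432, 239 and 42.4 CPM in naive replicates 1 to 5 and 224, 461, 167, 214 and 226 CPM in SCVS replicates 1 to 5. Naive replicates 1 and 3 and SCVS replicate 2 were high, at about the same level, and the groups overlapped. Its edgeR log2 fold change was −0.20 (SE 0.52, adjusted p = 1.00) with all replicates and −0.47 (SE 0.35) without naive replicate 5. The sign turned in limma with voom (0.041) and without naive replicate 1 (0.067) or 3 (0.020).

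Jam3 (ENSMUSG00000031990, chromosome 9, 27097384 to 27155421), for JAM-C, is overlapped by the predicted gene LOC115487155. It measured 113, 216, 149, 158 and 43.4 CPM in naive replicates 1 to 5 and 255, 329.9, 92.2, 156 and 137 CPM in SCVS replicates 1 to 5. SCVS replicates 1 and 2 were above every naive replicate, while the other 3 SCVS replicates lay within the naive range. The means of 136 ± 63.6 and 194 ± 96.5 CPM (naive and SCVS, SD, n = 5 each) gave the highest of the 9 fitted values, a log2 fold change of 0.45 (SE 0.45, adjusted p = 1.00) in edgeR's test, and 0.23 (SE 0.38) without naive replicate 5.

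Esam (ENSMUSG00000001946, chromosome 9, 37528089 to 37538319) encodes an endothelial adhesion molecule of tight junctions that platelets also carry. It measured 992, 1095, 1493, 1134 and 161 CPM in naive replicates 1 to 5 and 1260.2, 1239, 289, 976 and 541 CPM in SCVS replicates 1 to 5. Naive replicate 5 and SCVS replicates 3 and 5 were low, and the groups overlapped. The edgeR log2 fold change was −0.25 (SE 0.53, adjusted p = 1.00) with all replicates, and −0.52 (SE 0.38) without naive replicate 5, when 3 of 5 SCVS replicates lay below the lowest naive one.

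Pecam1 (ENSMUSG00000020717, chromosome 11, 106654213 to 106715281), the sort antigen CD31, is an adhesion molecule at endothelial contacts that takes part in leukocyte passage. It measured 966, 932, 1119, 949.5 and 21.5 CPM in naive replicates 1 to 5 and 985, 966, 536, 745 and 588 CPM in SCVS replicates 1 to 5. Naive replicates 1 to 4 were close together, naive replicate 5 held 287 counts, and SCVS replicates 1 and 2 lay within the range of the other naive replicates. The edgeR log2 fold change was −0.12 (SE 0.67, adjusted p = 1.00), and without naive replicate 5 it was −0.43 (SE 0.22). The sign turned in limma with voom on all replicates (0.15) and in edgeR without naive replicate 3 (0.042). Although cells were sorted for CD31, Pecam1 in naive replicate 5 was 2.17% of the mean of the other naive replicates.

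**Figure D3:**
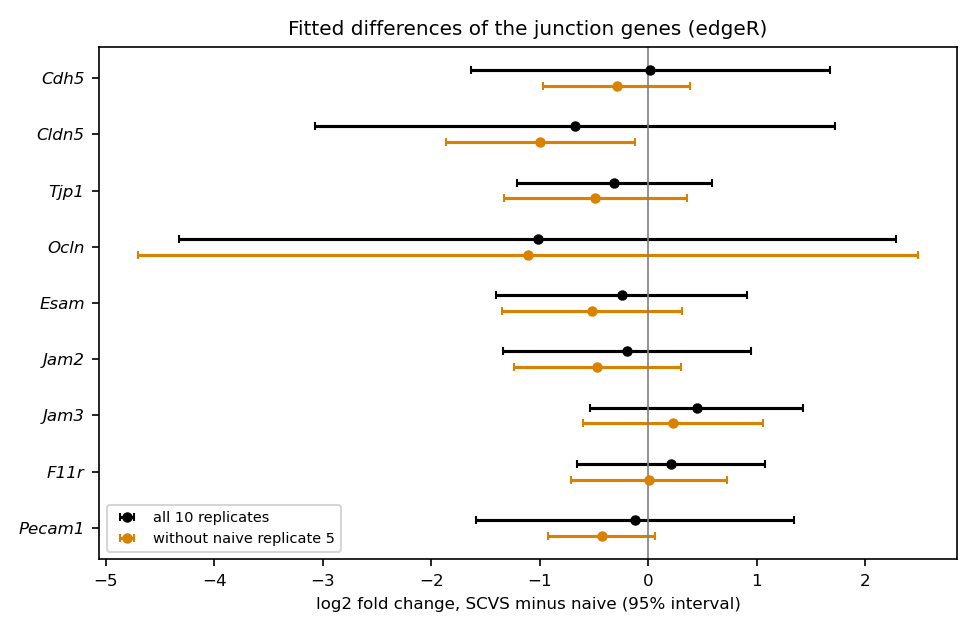
Log2 fold change (SCVS minus naive) of each junction gene in edgeR's quasi-likelihood fit, with its 95% interval, over all 10 replicates and without naive replicate 5. All intervals over 10 replicates include 0, and without that replicate only the interval of Cldn5 (−1.87 to −0.13) does not, before any adjustment for the number of genes tested. In edgeR's fit without naive replicate 5, 4.24% of tested genes had an unadjusted p under 0.05.

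Of 8 genes listed with Pecam1 in leukocyte passage, 7 were tested, 0 passed in edgeR's test, and 2 were fitted lower and 5 higher, with a median log2 fold change of 0.55, or 0.38 without naive replicate 5. Plvap, the protein of endothelial diaphragms, was the most abundant at 2684, 1287, 2256, 3239 and 166 CPM in naive replicates 1 to 5 and 2934, 5068, 501, 2172 and 1197 CPM in SCVS replicates 1 to 5. Cd47, a widely expressed ligand of SIRP-alpha, had 458 ± 137 CPM in naive and 695 ± 188 CPM in the SCVS group (SD, n = 5 per group), with an edgeR log2 fold change of 0.56 (SE 0.31, adjusted p = 1.00). Icam2, an endothelial ligand of leukocyte integrins, measured 286, 463, 341, 266 and 35.2 CPM in naive replicates 1 to 5 and 287, 379, 149, 279 and 192 CPM in SCVS replicates 1 to 5. As with Pecam1, its lowest value was in naive replicate 5.

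Gap junction genes join cells by channels rather than seals. Of 8 connexin and pannexin genes listed, 7 were tested and 0 passed in edgeR's test, with 3 fitted lower and 4 higher and a median log2 fold change of 0.31, or −0.00069 without naive replicate 5. Gja1, for connexin 43, measured 111, 176, 311, 205 and 53.2 CPM in naive replicates 1 to 5 and 184, 521, 656, 314 and 100.4 CPM in SCVS replicates 1 to 5. SCVS replicates 2, 3 and 4 were higher than every naive replicate, SCVS replicates 1 and 5 were not, and the edgeR log2 fold change was 1.01 (SE 0.56, adjusted p = 1.00). Gja4 and Gjb6 had log2 fold changes of −0.67 (SE 1.36, adjusted p = 1.00) and 2.29 (SE 1.72, adjusted p = 1.00) in the same edgeR fit.

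Of 16 epithelial and arachnoid barrier junction genes, 13 were tested and 0 passed in edgeR's test, with 6 fitted lower and 7 higher and a median log2 fold change of 0.031, and over the 11 of them also tested without naive replicate 5 it was 0.058 with and 0.66 without that replicate. Epcam, an epithelial adhesion molecule, measured 40.6, 0.157, 0, 175 and 510.0 CPM in naive replicates 1 to 5 and 0.0710, 257, 99.6, 115 and 70.5 CPM in SCVS replicates 1 to 5. Naive replicate 5, the library lowest in Cldn5, Cdh5 and Pecam1, was the highest in Epcam. Cdh1, for E-cadherin, had 46.4 CPM there and 0 to 93.7 CPM elsewhere. The transporter gene Slc47a1 was in the list as an arachnoid barrier marker. It had 11.1 ± 18.9 CPM in naive and 49.5 ± 59.0 CPM in the SCVS group (SD, n = 5 per group). Naive replicates 1, 3 and 5 held 2, 1 and 1 counts of it, within the limit of detection. Naive replicates 2 and 4 held 558 and 155, and SCVS replicates 13 to 1803.

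The share of each gene that naive replicate 5 kept separated the 9 genes. Relative to the mean of naive replicates 1 to 4, it held 0.0154% of Cldn5 (counting interval 0.00186 to 0.0556%), 1.18% of Cdh5 and 2.17% of Pecam1. Intermediate shares were found for Jam2 (12.5%), Esam (13.6%), Jam3 (27.3%) and F11r (32.6%). Tjp1 (42.7%) and Ocln (70.2%) kept the most, although Ocln at 0 in naive replicate 1 lowers its reference mean.

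Levels were compared between genes per kilobase of exon (CPM per kb). Over all 10 replicates Cldn5 had the highest mean, 454 ± 267 CPM per kb (SD, n = 10), which 99.4% of tested genes with a length lay below. Esam followed with 320.2 ± 154, Pecam1 with 181 ± 75.4 and F11r with 132 ± 52.9 CPM per kb. Lower levels were found for Jam3 (65.0 ± 32.7), Cdh5 (52.9 ± 24.2) and Jam2 (45.8 ± 23.1), and the lowest for Tjp1 (21.5 ± 8.13) and Ocln (20.0 ± 20.2 CPM per kb). Of the 8 pairs of neighbours in this order, 3 differed within libraries by more than the SD of that difference, namely Esam above Pecam1 in 9 of 10 replicates, F11r above Jam3 in 10 and Jam2 above Tjp1 in 9. Cldn5 lay above Esam in 8 of 10 replicates, the exceptions being naive replicate 5 and SCVS replicate 1, and that difference was within its SD.

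The median coefficient of variation of the 9 genes was below that of all tested genes, although Ocln lay above it. Their median coefficient of variation was 48.0% over 10 replicates and 37.2% without naive replicate 5, beside 92.8% and 91.2% over all tested genes, which include many of low count. Pecam1 had a coefficient of variation of 41.6% over 10 replicates, and 10.8% of tested genes had a lower one. Without naive replicate 5, where Pecam1 was lowest, its coefficient was 22.8%, with 1.87% of tested genes lower. That replicate was singled out after the counts had been seen. Of the 90 junction gene values, 3 (3.33%) were at or under 3 counts, beside 23.3% of the values of all tested genes. These 3 were Cldn5 in naive replicate 5 and Ocln in naive replicate 1 and SCVS replicate 3.

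Much of the likeness between junction genes came with naive replicate 5. Over the 36 pairs of the 9 genes, the median Pearson r of log2(CPM + 1) across 10 replicates was 0.72, and across the 9 replicates without naive replicate 5 it was 0.32. The points share library preparation and depth scaling, and the values are descriptions. Cdh5 and Cldn5 had r = 0.93 over 10 replicates and −0.060 over 9. Esam and Pecam1, at 0.86 and 0.94, were the 1 pair above 0.8 over 9 replicates. Tjp1 and Jam3 were at 0.011 over 10 and −0.60 over 9.

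Among all tested genes, those most like each member over the 10 replicates by the same r were as follows. They are the highest of 14815 genes over 10 points, and a search of that size can give high r by itself. For Cdh5 they were Pecam1 (r = 0.99), Sp100 (0.99) and Ly6e (0.99), and for Pecam1 they were Tgm2 (r = 0.99), Ceacam1 (0.99) and Sorbs3 (0.99). Cldn5 was most like Lats2 (r = 0.98), H2-Q7 (0.98) and Entpd1 (0.98). For Tjp1 they were Lrrk1 (r = 0.96), Ccdc163 (0.95) and Cldn11 (0.93), the last a claudin of the partner list. Ocln was most like Adh1 (r = 0.97), Thoc6 (0.94) and Dcaf5 (0.94). For Esam they were Tmem203 (r = 0.96), She (0.96) and Inpp1 (0.96), and for Jam2 Timp3 (r = 0.97), Notch4 (0.96) and Sorbs2 (0.95). Jam3 was most like Ets1 (r = 0.97), C130074G19Rik (0.96) and Foxo1 (0.96), and F11r P4hb (r = 0.95), Tcf15 (0.95) and Shisa5 (0.94). Without naive replicate 5, r with Cdh5 was 0.78 for Sp100 and r with Cldn5 was 0.89 for Lats2, while r with Tjp1 was 0.95 for Lrrk1 and r with Ocln 0.98 for Adh1. Of the 27 named, 7 were again among the 3 most alike without that replicate, namely 3 for Tjp1, 2 for Jam3, 1 each for Ocln and F11r, and 0 for Cdh5, Cldn5, Esam, Jam2 and Pecam1.

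RefSeq start regions in GRCm38.p6 were matched for 4 of the 9 genes, Cldn5, Tjp1, F11r and Ocln, and are shown so that the letters before each start can be compared. The 250 bases before each start lie at chr16:18776597-18776846 on the plus strand, chr7:65371245-65371494 on the minus strand, chr1:171437311-171437560 on the plus strand and, for Ocln, chr13:100552719-100552968 on the minus strand. The Tjp1 window lies inside the annotated span of that gene, before an internal start. Capitals mark the GC box letters CCGCCC, searched on both strands, which 32.7% of 32851 promoter windows of this length hold.
Cldn5: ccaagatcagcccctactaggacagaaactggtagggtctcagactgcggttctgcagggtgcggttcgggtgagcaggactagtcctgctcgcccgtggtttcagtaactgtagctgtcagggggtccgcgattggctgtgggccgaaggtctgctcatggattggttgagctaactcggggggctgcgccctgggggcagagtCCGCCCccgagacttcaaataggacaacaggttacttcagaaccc
Tjp1: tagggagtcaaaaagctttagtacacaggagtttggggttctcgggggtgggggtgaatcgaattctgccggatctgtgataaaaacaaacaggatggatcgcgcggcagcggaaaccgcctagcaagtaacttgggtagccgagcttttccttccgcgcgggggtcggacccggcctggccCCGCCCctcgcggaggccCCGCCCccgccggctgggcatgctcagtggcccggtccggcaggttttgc
F11r: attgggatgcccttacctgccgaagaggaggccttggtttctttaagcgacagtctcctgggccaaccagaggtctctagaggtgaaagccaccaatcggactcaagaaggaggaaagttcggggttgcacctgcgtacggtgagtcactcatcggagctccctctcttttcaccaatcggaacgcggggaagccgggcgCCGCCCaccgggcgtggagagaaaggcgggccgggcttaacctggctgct
Ocln: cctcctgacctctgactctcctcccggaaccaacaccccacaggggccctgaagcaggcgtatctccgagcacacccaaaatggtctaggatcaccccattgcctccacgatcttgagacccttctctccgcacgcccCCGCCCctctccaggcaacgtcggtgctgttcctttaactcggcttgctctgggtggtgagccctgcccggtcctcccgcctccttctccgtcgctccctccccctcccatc
The motif occurred 1 time in Cldn5, 2 times in Tjp1, 1 time in F11r and 1 time in Ocln. CpG dinucleotides numbered 12, 22, 17 and 14 in that order, beside a median of 6 over all windows. Another Ocln window, which overlaps the printed one, held 22 CpG and 1 match. These matches describe the letters only.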

How the data were processed

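The authors amplified RNA of sorted meningeal cells, aligned the reads and deposited raw counts, 1 whole number per gene and replicate, with no normalization. The submitters' processing notes name cutadapt 1.9.1, HISAT2 2.0.1, HTSeq 0.6.1 and GRCm38, whereas the methods of the study name mm9, and use of strand is not given in the sources used here, so reads in overlapping genes may be shared. Positions are those of RefSeq on GRCm38.p6. Exon lengths are the union of exons in GENCODE M1, which holds 32589 of the 55401 identifiers and all 9 junction genes.

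Members and gene lists were chosen with earlier results of these data known. Genes with over 5 counts in at least 3 of 10 replicates were tested with edgeR 4.0.16 (quasi-likelihood, TMM, Benjamini-Hochberg adjustment over all tested genes, threshold 0.1) in R 4.3.3, with no block for replicate number. The standard error is the log2 fold change divided by the root of the F statistic. CPM used column totals. DESeq2 1.42.0, limma 3.58.1 with voom and quality weights, other scalings, filters and covariates, and each replicate left out were alternatives. DESeq2 and limma without naive replicate 5 and edgeR without naive replicates 1 and 5 were added after seeing the data, as was the olfactory list. On simulated counts, edgeR, DESeq2 and limma recovered the changes put in at a low spread. At edgeR's common spread over all genes of these data (biological coefficient of variation 1.59), edgeR recovered none and limma few of them. DESeq2 made more false than true calls there. A gene that does not pass in edgeR may therefore still differ, and DESeq2's count is uncertain. Every simulated gene had that same spread, whereas the junction genes had a median coefficient of variation of 48.0% over 10 replicates. How large a change in the junction genes would be found was not tested. Named genes are all members, the 3 of highest mean CPM in each partner list with any past the threshold or with groups that did not overlap, and the 3 most like each member. Cldn25 and Cd99 were not analysed here. Python 3.11.15, NumPy 2.4.6, pandas 2.3.3, SciPy 1.17.1 and Matplotlib 3.10.9 were used.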

Additional observations from a re-analysis of the deposited data

Results flagged for a closer look

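Among the 9 junction genes in the 2 groups, a replicate lay far from the rest of its group in a pair of cases. Pecam1 in naive replicate 5, at 21.5 CPM, was separated from the next naive value by 0.829 of the range of its group. Jam2 in SCVS replicate 2, at 461 CPM, was separated from the next SCVS value by 0.8 of the range. The limit for a flag was 0.71, and Cdh5 in naive replicate 5, at 0.708, lay just under it. Chance flags about 1 in 20 groups. The genes were measured in the same libraries, so their flags are not independent.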

How the results depend on the processing

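No junction gene passed an adjusted p of 0.1 under any of the 23 alternatives. The count of all genes past the threshold was 114 in DESeq2 beside 0 by quasi-likelihood in edgeR, 123 in DESeq2 without its Cook filter, 3 in limma with voom and 38 in edgeR's likelihood ratio test, and without naive replicate 5, an alternative chosen after seeing the data, 214 in DESeq2 and 2 in limma with voom. With each replicate left out, edgeR gave 0. Junction genes whose groups did not overlap numbered 0 to 1 with each replicate left out, where 1.15 to 1.4% of tested genes did not overlap, Cldn5 being the 1 without naive replicate 5 (1.37% of tested genes), and 1 without naive replicates 1 and 5 (3.04%). The median junction gene log2 fold change ranged from −0.47 to 0.020 with each replicate left out. Signs turned in limma with voom for Cldn5 (0.18), Jam2 (0.041) and Pecam1 (0.15), and with detected genes per library as covariate for F11r (−0.12). Cdh5 was negative without naive replicate 5 in edgeR (−0.29), DESeq2 (−0.28) and limma (−0.26), and, with SCVS replicate 1 or 2 left out, at −0.11 and −0.11. With each replicate left out, log2 fold changes ranged for Cdh5 from −0.29 to 0.22, Cldn5 from −0.996 to −0.43, Ocln from −2.01 to −0.37, Tjp1 from −0.49 to −0.11, F11r from 0.0050 to 0.42, Jam2 from −0.47 to 0.067, Jam3 from 0.23 to 0.66, Esam from −0.52 to −0.031 and Pecam1 from −0.43 to 0.042. Jam2 was positive without naive replicate 1 (0.067) or 3 (0.020), and Pecam1 without naive replicate 3 (0.042). Without naive replicates 1 and 5, Cdh5 was at −0.19, F11r at −0.13, Esam at −0.57 and Jam3 at 0.11. Values outside these ranges with no turn of sign included Cdh5 in limma with voom (0.37), Cldn5 with detected genes as covariate (−1.28) and, in limma without naive replicate 5, Cldn5 (−1.02), Esam (−0.54) and Jam3 (0.19). The cause of these turns was not tested.

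With the replicate number as a replicate block, 0 genes passed, the median junction gene log2 fold change was 0.078, Cdh5 was at 0.48, and Jam2 (0.078) and Pecam1 (0.30) turned positive. Nothing in the sources used here says that same-numbered replicates share a cohort, and their deviations from the group means correlated at −0.017 to 0.15.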
